A study of Arabidopsis thaliana with 16 samples.

Results

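The genes described here serve protein folding in the endoplasmic reticulum. They were chosen as the probe sets annotated to 10 listed loci: the transcription factor gene BZIP60, the co-chaperone gene ATERDJ3B, the calreticulin genes CRT1a, CRT1b and CRT3, the calnexin gene CNX1, the chaperone genes BIP1, BIP2 and SHD, and the protein disulfide isomerase gene PDIL1-1. In the probe annotation used, 3 of the 10 loci had a probe set, 1 each: BZIP60 (AT1G42990), ATERDJ3B (AT3G62600) and CRT1b (AT1G09210). The other 7 loci were not analysed here. The 3 probe sets stand among 22810 on the Affymetrix ATH1 array, and all 3 passed a filter on dim signals that left 13648 probe sets to test.

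Leaf RNA of Arabidopsis thaliana plants, 4 weeks old, was hybridised to 16 arrays, 2 for each of 8 groups. Each of 4 genotypes (wild-type Col-0, atgsnor1-1, atgsnor1-3 and sid2) gave an untreated group and a group taken 6 h after avrB, an effector of Pseudomonas syringae that the resistance protein RPM1 detects. GSNOR1 encodes S-nitrosoglutathione reductase; the line atgsnor1-1 is known for raised and atgsnor1-3 for lost reductase activity, and sid2 is deficient in isochorismate synthase and so in the salicylic acid made upon infection. The labels do not say how avrB was delivered and name no mock-inoculated group, so a response here is avrB against untreated leaves and also holds whatever inoculation and time of sampling changed.

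Proteins bound for secretion fold in the endoplasmic reticulum, where chaperones of the Hsp70 class bind exposed stretches with the help of J-domain proteins such as ERDJ3B, and where calnexin and calreticulin hold glycoproteins through their sugar chains. When unfolded proteins build up there, the sensor IRE1 splices the BZIP60 transcript, and the spliced form encodes a transcription factor that enters the nucleus and switches on chaperone genes; BZIP28 reaches the nucleus by a separate route, through cleavage in the Golgi. In Arabidopsis, salicylic acid and immune signals are known to raise genes of this pathway ahead of the secretion of defence proteins, and ERDJ3B and calreticulins are known to help pattern-recognition receptors mature. A probe set reads the summed transcript, so spliced and unspliced BZIP60 cannot be told apart on this array.

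Signals are in linear MAS5 units, and differences are on the log2 scale from 1 limma fit of all 16 arrays, with a standard error (SE) and a p adjusted by Benjamini-Hochberg over all 13648 tested probe sets. A gene was called, and is said to have risen or fallen or to be higher or lower, where the adjusted p was under 0.05 and the log2 difference at least 1 in size. The median signal per array ran from 33.0 to 40.8 units, and the arrays of a group correlated at 0.92 to 0.97 on the log2 scale. The labels do not say that the 2 arrays of a group came from separate plants, so p-values measure only the spread between these samples. Of the leaf markers, 2 of 7 had a probe set and both were abundant: RCA, the Rubisco activase gene, read 5226 to 7364 units in untreated leaves and 2873 to 4298 after avrB, and PRK, the phosphoribulokinase gene, read 3015 to 5180 and 1053 to 1661. The root marker PYK10 read 3.28 to 27.2 units and lay below the filter on average, and the guard-cell marker FMA read 29.2 to 71.9. In whole leaves, fewer cells of a type and less RNA per cell cannot be told apart. The part that the lower leaf markers after avrB had in the responses was not tested.

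BZIP60 rose after avrB in all 3 mutants, from unlike starting levels. Untreated Col-0 read 468 and 345 units, and after avrB 543.5 and 594. In atgsnor1-1 the gene read 272 and 252 units untreated and 732 and 562 after avrB. In atgsnor1-3 it read 126 and 148 units untreated and 1306 and 1194 after avrB. These last are the lowest untreated group and the highest group of all. In sid2 the gene read 150.4 and 159 units untreated and 667 and 732 after avrB. In each genotype both arrays after avrB lay above both untreated arrays.

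**Figure D1:**
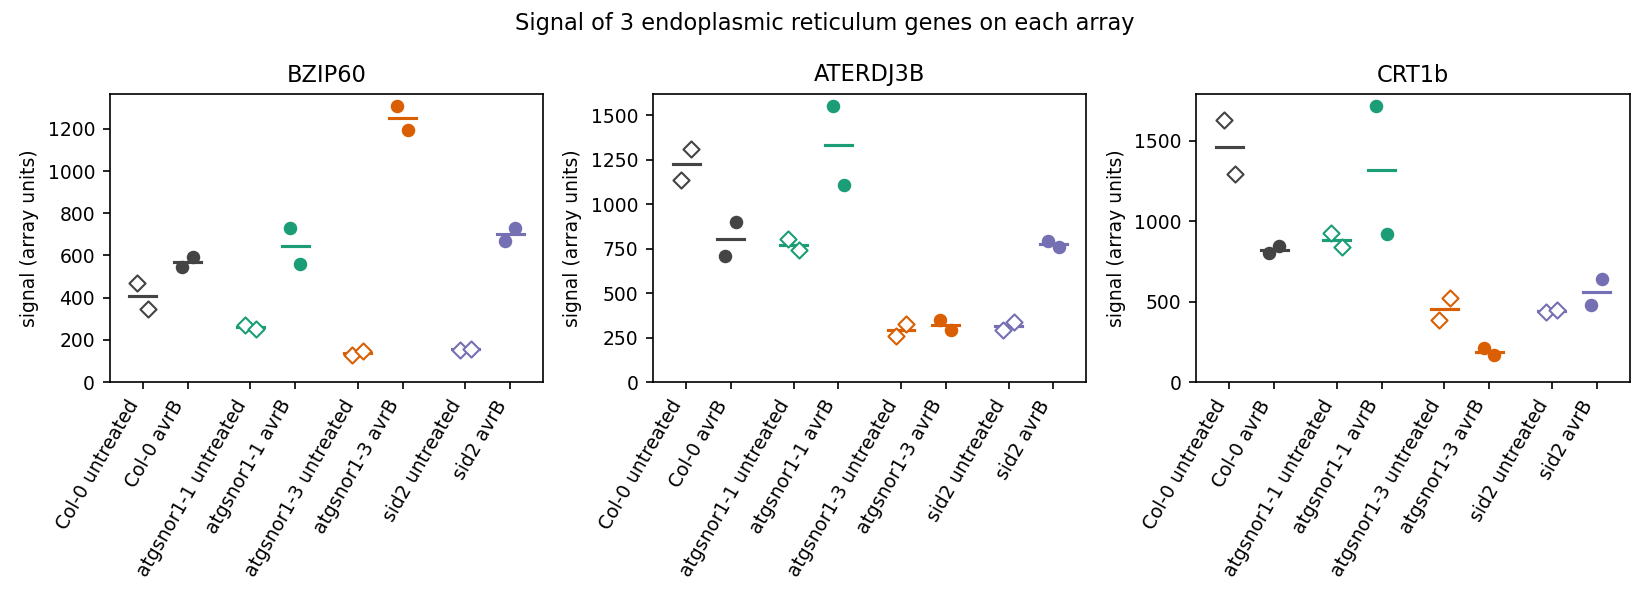
Signal in MAS5 units (linear axis) of BZIP60, ATERDJ3B and CRT1b on each of the 16 arrays, by genotype, with untreated leaves and leaves 6 h after avrB side by side. Each point is 1 array and each bar the group mean. In every genotype both BZIP60 points after avrB lie above both untreated points, though the Col-0 difference was not called. After avrB in atgsnor1-3 BZIP60 is highest, at 1306 and 1194 units, while CRT1b is lowest there at 211 and 168.

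The log2 response of BZIP60 was 3.19 ± 0.17 (SE) in atgsnor1-3, a 9.16-fold rise (adjusted p = 5.17e-10). It was 2.18 ± 0.17 in sid2, a 4.52-fold rise (adjusted p = 7.77e-08). It was 1.29 ± 0.17 in atgsnor1-1, a 2.45-fold rise (adjusted p = 2.65e-05). These 3 calls held in every alternative that was run. In Col-0 the log2 difference was 0.50 ± 0.17 (adjusted p = 0.0447), under the fold threshold, with a 95% interval of 0.13 to 0.87.

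The size of that response differed between genotypes. The response of BZIP60 in atgsnor1-3 exceeded that in Col-0 by a log2 of 2.70 ± 0.24 (adjusted p = 3.75e-06). In sid2 it exceeded that in Col-0 by 1.68 ± 0.24 (adjusted p = 0.00108). For atgsnor1-1 the difference was 0.79 ± 0.24 (adjusted p = 0.174) and was not called. The 3 differences share the Col-0 arrays. Set against each other, atgsnor1-3 responded more than sid2 by 1.02 ± 0.24 (adjusted p = 0.0219), just past the fold threshold. That call was lost when either untreated sid2 array, either sid2 array after avrB or the first atgsnor1-3 array of either state was left out (log2 0.90 to 1.09, adjusted p 0.0485 to 0.0919), with a pseudocount (1.00) and with a variance without a trend.

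The order of BZIP60 levels was not the same in the 2 states. Among untreated groups the means rose from 137 units in atgsnor1-3 through 155 in sid2 and 262 in atgsnor1-1 to 407 in Col-0, and no neighbours in that order overlapped. The step between atgsnor1-3 and sid2 was nonetheless small, at a log2 of -0.18 ± 0.17 (adjusted p = 0.627). After avrB the means rose from 569 units in Col-0 through 647 in atgsnor1-1 and 699 in sid2 to 1250 in atgsnor1-3, and only atgsnor1-3 lay apart from its neighbour. BZIP60 in atgsnor1-3 thus went from 1.56 log2 units below untreated Col-0 (-1.56 ± 0.17, adjusted p = 8.14e-06) to 1.14 ± 0.17 above Col-0 after avrB (adjusted p = 0.000166). In sid2 it went from -1.38 ± 0.17 (adjusted p = 4.61e-05) to 0.30 ± 0.17 (adjusted p = 0.514).

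ATERDJ3B, whose product is the J-domain partner of BiP, rose after avrB in sid2. Untreated Col-0 read 1136 and 1311 units and Col-0 after avrB 708 and 899. In sid2 the signals were 293 and 336 untreated and 794 and 761 after avrB, a log2 rise of 1.31 ± 0.19 (2.48-fold, adjusted p = 3.64e-05). In atgsnor1-3 they were 257 and 327 untreated and 346 and 292 after avrB. The atgsnor1-3 groups overlap, and the log2 difference was 0.13 ± 0.19 (adjusted p = 0.574, 95% interval -0.26 to 0.53).

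In the other two genotypes ATERDJ3B moved by less than the fold threshold, in opposite directions. In Col-0 both arrays after avrB lay below both untreated arrays, at a log2 difference of -0.61 ± 0.19 (adjusted p = 0.0235). In atgsnor1-1 the signals were 802 and 743 units untreated and 1554 and 1107 after avrB, a difference of 0.76 ± 0.19 (adjusted p = 0.00435). The 2 atgsnor1-1 arrays after avrB stood apart from each other. Without the first the difference was 0.52, and without the second it was 1.01 and would be called (adjusted p = 0.00199).

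Tested against Col-0, the ATERDJ3B response was higher in sid2 by a log2 of 1.92 ± 0.26 (adjusted p = 0.000696), a difference of 3.79-fold that was called in every alternative run. In atgsnor1-1 it was higher by 1.38 ± 0.26 (adjusted p = 0.0331). That call was lost with any 1 of 6 of the 8 arrays left out, the exceptions being the first untreated Col-0 array and the second atgsnor1-1 array after avrB, and with a variance without a trend. Over the 15 alternatives the adjusted p ran from 0.0112 to 0.171 and the difference from 1.13 to 1.62. In atgsnor1-3 the difference from Col-0 was 0.75 ± 0.26 (adjusted p = 0.0594), not called. The atgsnor1-3 response was lower than that of sid2, by -1.18 ± 0.26 (adjusted p = 0.0153), and the call was lost with a variance without a trend (adjusted p = 0.0542) or without the first sid2 array of either state or the second atgsnor1-3 array after avrB (-1.06 to -1.15, adjusted p 0.0604 to 0.068).

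CRT1b, which encodes a lectin chaperone of the calreticulin family, fell after avrB in atgsnor1-3. Untreated Col-0 read 1627 and 1291 units and Col-0 after avrB 802 and 844. In atgsnor1-3 the signals were 387 and 522 untreated and 211 and 168 after avrB, a log2 change of -1.26 ± 0.24 (adjusted p = 0.000403). That last group was the lowest of all 8 and overlapped no other. In Col-0 the groups did not overlap either, but the change of -0.82 ± 0.24 (adjusted p = 0.0217) was under the fold threshold.

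The other mutants gave no call for CRT1b. In sid2 it read 435 and 449 units untreated and 476 and 641 after avrB (log2 0.32 ± 0.24, adjusted p = 0.325). In atgsnor1-1 it read 927 and 838 units untreated and 1714 and 922 after avrB (0.51 ± 0.24, adjusted p = 0.121). The atgsnor1-1 groups overlap, and the value rests on 1 array: without the first array after avrB it was 0.07, and without the second 0.96.

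None of the 3 mutants had a CRT1b response that was called different from that of Col-0. The differences were 1.33 ± 0.35 in atgsnor1-1 (adjusted p = 0.104), 1.14 ± 0.35 in sid2 (adjusted p = 0.106) and -0.44 ± 0.35 in atgsnor1-3 (adjusted p = 0.415). Without the second atgsnor1-1 array after avrB the first of these was 1.78 and would be called (adjusted p = 0.0124), and the sid2 difference would be called in a fit of those 4 groups alone (adjusted p = 0.0213). Between atgsnor1-3 and sid2 the CRT1b responses did differ, by -1.58 ± 0.35 (adjusted p = 0.0131). That call was lost without the second atgsnor1-3 array after avrB (-1.42, adjusted p = 0.0608), without the second sid2 array after avrB (-1.37, adjusted p = 0.0672) and with a variance without a trend (adjusted p = 0.053).

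**Figure D2:**
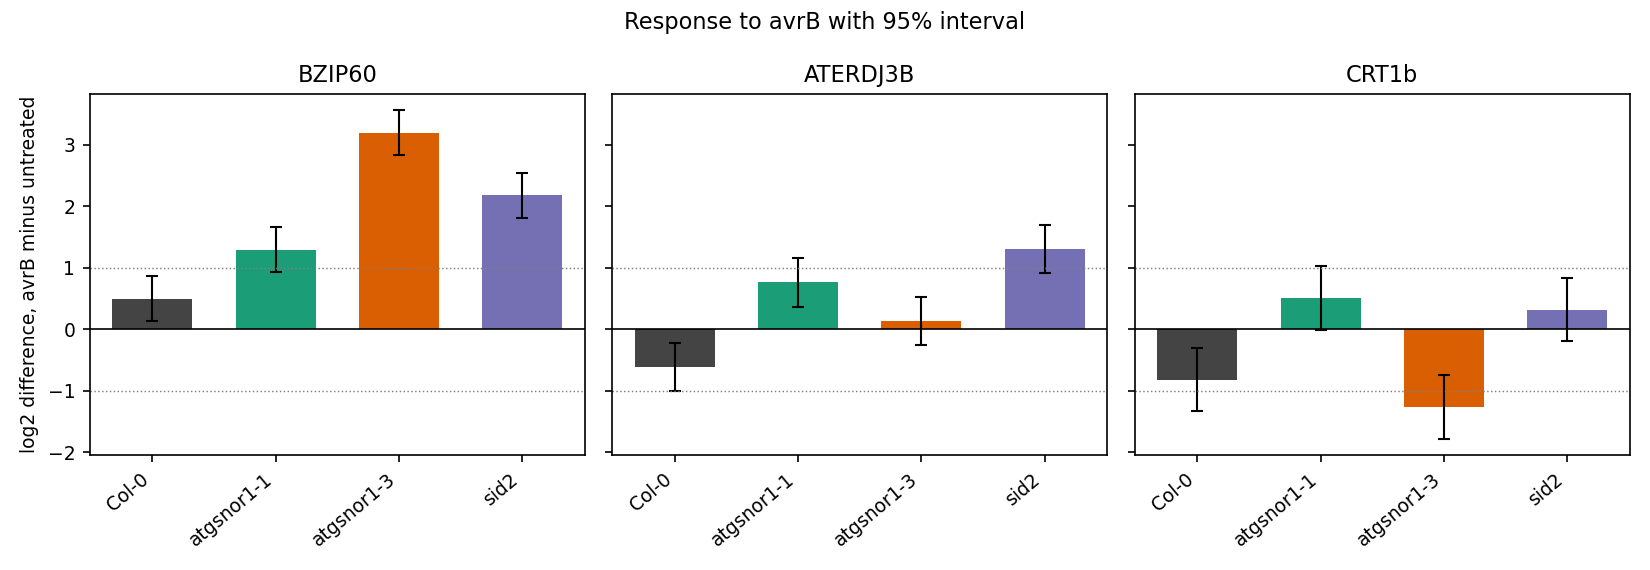
Log2 difference, avrB minus untreated, of BZIP60, ATERDJ3B and CRT1b in each genotype, with 95% intervals from the limma fit and dotted lines at the fold threshold of 1 in either direction. BZIP60 lies above 1 in the 3 mutants, up to 3.19 in atgsnor1-3, where CRT1b lies at -1.26 and ATERDJ3B at 0.13.

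Counted over the 3 genes, the avrB response called none in Col-0, where 12.4% of all tested probe sets were called. It called 1 in atgsnor1-1 (19.1% of all), 2 in atgsnor1-3 (34.9%) and 2 in sid2 (22.5%). In atgsnor1-3 the 2 were called in opposite directions, BZIP60 up and CRT1b down. Of the differences between responses, 1 gene was called for atgsnor1-1 against Col-0 (0.542% of all), 1 for atgsnor1-3 against Col-0 (15.1%), 2 for sid2 against Col-0 (2.6%) and 3 for atgsnor1-3 against sid2 (5.12%).

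In untreated leaves all 3 genes were lower in atgsnor1-3 than in Col-0, and all 3 were lower in sid2. Of all tested probe sets, 8.79% were called in untreated atgsnor1-3 against Col-0, 6.5% as lower. For untreated sid2 against Col-0 the shares were 5.92% and 3.96%. Both comparisons share the untreated Col-0 arrays.

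ATERDJ3B was lower by the widest margin of the 3 genes, at -2.07 ± 0.19 in atgsnor1-3 (4.21-fold, adjusted p = 8.14e-07) and -1.96 ± 0.19 in sid2 (3.89-fold, adjusted p = 2.65e-06). CRT1b was lower at -1.69 ± 0.24 in atgsnor1-3 (adjusted p = 0.000138) and -1.71 ± 0.24 in sid2 (adjusted p = 0.000172). For each gene every untreated array of these mutants lay below both untreated Col-0 arrays, and the 6 calls, with those of BZIP60 given above, held in every alternative run.

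Untreated atgsnor1-1 lay between Col-0 and the other mutants for each gene, without overlap with Col-0. Its differences from Col-0 were -0.66 ± 0.19 for ATERDJ3B (adjusted p = 0.236), -0.62 ± 0.17 for BZIP60 (adjusted p = 0.224) and -0.72 ± 0.24 for CRT1b (adjusted p = 0.385). None was called, in a comparison that called 0.147% of all tested probe sets. Untreated atgsnor1-3 and sid2 were not called different for any of the 3 genes, where 2.25% of all were called. The 95% interval of atgsnor1-3 minus sid2 was -0.51 to 0.28 for ATERDJ3B, -0.55 to 0.19 for BZIP60 and -0.49 to 0.54 for CRT1b.

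After avrB atgsnor1-3 and sid2 stood apart. All 3 genes were called in atgsnor1-3 against Col-0 (13.1% of all called): ATERDJ3B lower at -1.33 ± 0.19 (adjusted p = 7.68e-05), CRT1b lower at -2.13 ± 0.24 (4.38-fold, adjusted p = 1.08e-05) and BZIP60 higher, as given above. None of the 3 was called in sid2 against Col-0 (1.5% of all called). ATERDJ3B differed there by -0.04 ± 0.19 (adjusted p = 0.965, 95% interval -0.43 to 0.36) and CRT1b by -0.57 ± 0.24 (adjusted p = 0.314, 95% interval -1.09 to -0.06).

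Set directly against sid2 after avrB, atgsnor1-3 had less ATERDJ3B, at -1.29 ± 0.19 (adjusted p = 0.000182), and less CRT1b, at -1.56 ± 0.24 (adjusted p = 0.000373). These are 2 calls of 3 where 8.86% of all were called. BZIP60 was 0.84 ± 0.17 above sid2 (adjusted p = 0.00303), under the fold threshold though the arrays did not overlap. Against Col-0 after avrB, atgsnor1-1 had no call among the 3 (0.161% of all called), with ATERDJ3B at 0.72 ± 0.19 (adjusted p = 0.121), CRT1b at 0.61 ± 0.24 (adjusted p = 0.38) and BZIP60 at 0.17 ± 0.17 (adjusted p = 0.824). CRT1b would be called without the second atgsnor1-1 array (1.06, adjusted p = 0.0469) and stood at 0.16 without the first.

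**Figure D3:**
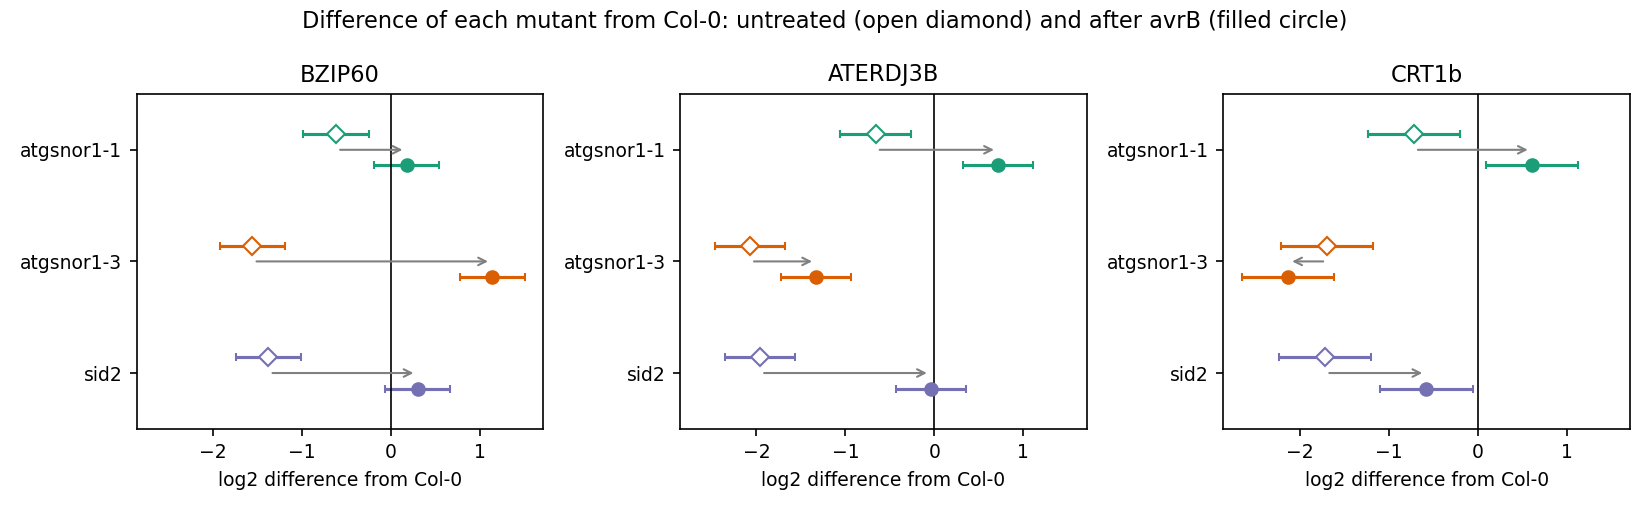
Log2 difference of each mutant from Col-0 for BZIP60, ATERDJ3B and CRT1b, with 95% intervals, in untreated leaves (diamonds) and 6 h after avrB (circles). In sid2 the 3 genes go from -1.38, -1.96 and -1.71 to 0.30, -0.04 and -0.57, while in atgsnor1-3 BZIP60 goes from -1.56 to 1.14 and CRT1b stays low at -2.13.

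The levels of the 3 genes did not follow one pattern. Across the 8 group means of log2 signal, which share arrays and scaling, ATERDJ3B and CRT1b correlated at r = 0.87. BZIP60 correlated with ATERDJ3B at 0.35 and with CRT1b at -0.13. The ATERDJ3B means rose from 292 units in untreated atgsnor1-3 through 314 in untreated sid2, 319 in atgsnor1-3 after avrB, 773 in untreated atgsnor1-1, 778 in sid2 after avrB, 804 in Col-0 after avrB and 1224 in untreated Col-0 to 1331 in atgsnor1-1 after avrB. Neighbours in that order overlapped except at the step from 319 to 773 and at that from 804 to 1224. For CRT1b the highest means were 1459 units in untreated Col-0 and 1318 in atgsnor1-1 after avrB, whose arrays overlapped.

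Of the other genes of the pathway, 7 lists were drawn up, and 6 of them held tested probe sets, 21 in all. They cover stress sensors and transcription factors (4 of 10 loci tested), Hsp70 proteins and co-chaperones (3 of 7), the calnexin cycle (1 of 5), disulfide formation (1 of 14), degradation of misfolded proteins (5 of 8), and translocation with N-glycosylation (7 of 17). The list of regulators of secretion and cell death had none tested of 3. A further pair of lists, protein entry with signal peptide removal and export from the endoplasmic reticulum, was added once the names on the array were known and holds 13 tested probe sets.

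In untreated atgsnor1-3, 7 of the 21 were called lower than in Col-0 and none higher, where 6.5% of all tested probe sets were called lower. The median log2 difference was -0.59 against 0.05 over all; without the first atgsnor1-3 array the count was 5. In untreated sid2, 5 of 21 were lower and none higher, where 3.96% of all were called lower, with a median of -0.63 against -0.00 over all. In untreated atgsnor1-1 none was called, and the median was -0.37 against -0.01. Of the 13 in the added lists, 3 were lower in atgsnor1-3 (6.5% of all; 1 of the 13 without its second untreated array) and 1 in sid2 (3.96% of all; 2 of the 13 without the first untreated Col-0 array).

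The avrB response called at most 4 of the 21 in any genotype. In Col-0 it called none, where 12.4% of all were called, with a median log2 difference of -0.21 against -0.12 over all tested probe sets. In atgsnor1-1 it called 2 higher, where 8.58% of all tested probe sets were called higher. With all arrays kept that count ran from 0 to 2 over the alternatives. It also changed without the first or without the second array after avrB. The 2 were BZIP28 and AT3G60540 of the translocation list. The latter was at 1.00 ± 0.34 (adjusted p = 0.032) and was called in 6 of 11 alternatives. In atgsnor1-3 it called 3 higher and 1 lower (15% and 20% of all). In sid2 it called 4 higher (10.9% of all). The counts in Col-0, atgsnor1-3 and sid2 changed by at most 1 in any alternative.

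Among the transcription factors, BZIP28 rose after avrB in atgsnor1-3 by a log2 of 1.55 ± 0.23 (adjusted p = 3.07e-05) and in sid2 by 1.36 ± 0.23 (adjusted p = 0.000192). In Col-0 the change was 0.39 ± 0.23 (adjusted p = 0.239). In atgsnor1-1 it was 1.03 ± 0.23 (adjusted p = 0.00229), a call lost without the second untreated or the first avrB array (0.90 and 0.87) and with a pseudocount (0.97). Unlike BZIP60 it was not called lower in untreated atgsnor1-3 (-0.45 ± 0.23, adjusted p = 0.198) or sid2 (-0.55 ± 0.23, adjusted p = 0.149). BZIP17, a close relative that acts in salt stress, had log2 responses between -0.40 and 0.33, and S1P, the Golgi protease that cleaves these factors, between -0.73 and 0.78, with no call in either.

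AT4G16660, placed in the Hsp70 list, was lower in untreated atgsnor1-3 and sid2. It read 328 and 372 units in untreated Col-0 but 70.0 to 130.3 in untreated atgsnor1-3 and 77.2 to 89.3 in untreated sid2. The log2 differences from Col-0 were -1.87 ± 0.25 (adjusted p = 6.04e-05) and -2.07 ± 0.25 (adjusted p = 3.05e-05). After avrB it rose in sid2 by 1.37 ± 0.25 (adjusted p = 0.000388), and its response there exceeded that of Col-0 by 1.99 ± 0.35 (adjusted p = 0.0045). Against Col-0 after avrB the gene stood at -0.09 ± 0.25 in sid2 (adjusted p = 0.939). Unlike ATERDJ3B it was not called in atgsnor1-3 after avrB, against Col-0 (-0.72 ± 0.25, adjusted p = 0.0463) or against sid2 (-0.63 ± 0.25, adjusted p = 0.0935). ATERDJ2B, another J-domain protein gene, was lower in untreated sid2 at -1.30 ± 0.24 (adjusted p = 0.00164). Against Col-0 it was also lower in untreated atgsnor1-3 at -1.02 ± 0.24 (adjusted p = 0.00704), a call that held in 7 of 11 alternatives. After avrB it was lower in atgsnor1-3 than in Col-0 at -1.11 ± 0.24 (adjusted p = 0.0027), a call that held in 9 of 11.

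AT5G07340, the tested gene of the calnexin cycle list, was lower in the same groups as CRT1b. It read 183 and 199 units in untreated Col-0, 66.0 and 72.9 in untreated atgsnor1-3 and 26.4 and 34.6 in atgsnor1-3 after avrB. Its log2 difference from untreated Col-0 was -1.46 ± 0.24 in atgsnor1-3 (adjusted p = 0.000428) and -1.56 ± 0.24 in sid2 (adjusted p = 0.000343). In atgsnor1-3 it fell after avrB by 1.20 on the log2 scale (SE 0.24, adjusted p = 0.00049), a call lost with a pseudocount (-0.99), and it stood at -1.92 ± 0.24 against Col-0 after avrB (adjusted p = 2.31e-05) and at -1.42 ± 0.24 against sid2 (adjusted p = 0.000646).

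Genes of degradation, translocation and signal peptide removal held the other calls in untreated leaves. DER2.1, a derlin gene, was lower in untreated atgsnor1-3 at -1.65 ± 0.23 (adjusted p = 8.95e-05). DER1, read from the brighter of its 2 probe sets since the other lay below the filter, was lower at -1.14 ± 0.22 in atgsnor1-3 and -1.08 ± 0.22 in sid2, calls that went under the fold threshold without the first untreated array of that mutant (-0.98 and -0.96), and in sid2 with a pseudocount too (-0.999). SPP, the signal peptide peptidase gene, was lower at -1.36 ± 0.14 in atgsnor1-3 (adjusted p = 3.87e-06) and -1.32 ± 0.14 in sid2 (adjusted p = 9.04e-06), with 249 units on both atgsnor1-3 arrays and 257 on both sid2 arrays against 635 and 648 in Col-0.

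The other called genes of the added lists, AT2G39960 and AT2G16595, were placed with protein entry and signal peptide removal. AT2G39960 read 220.1 and 487 units in untreated Col-0, 97.8 and 141 in untreated atgsnor1-3 and 92.9 and 154 in Col-0 after avrB. It was called lower in untreated atgsnor1-3 (-1.48 ± 0.38, adjusted p = 0.0127) and after avrB in Col-0 (-1.45 ± 0.38, adjusted p = 0.00974). Both calls were lost without the first untreated Col-0 array (-0.90 and -0.88), the brighter of the pair. The first was also lost without the second untreated atgsnor1-3 array and the second without the first Col-0 array after avrB. After avrB it was higher than in Col-0 in atgsnor1-1 (2.06 ± 0.38, adjusted p = 0.0465) and sid2 (1.54 ± 0.38, adjusted p = 0.0416), calls that each held in 4 of 11 alternatives, and lower in atgsnor1-3 than in sid2 (-1.71 ± 0.38, adjusted p = 0.00477), a call lost without the first atgsnor1-3 array (adjusted p = 0.0682).

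AT2G16595 was dim, at group means of 21.8 to 89.5 units. It rose after avrB in atgsnor1-1 by 1.76 ± 0.33 (adjusted p = 0.000646) and in atgsnor1-3 by 1.33 ± 0.33 (adjusted p = 0.00324). Its lower level in untreated atgsnor1-3 (-1.06 ± 0.33, adjusted p = 0.0375) was called in 4 of 10 alternatives only.

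AT3G60540, placed in the translocation list, had the widest differences of the 21 genes. It read 282 and 294 units in untreated Col-0, 24.6 and 53.1 in atgsnor1-3 and 47.4 and 55.8 in sid2. The log2 differences were -2.99 ± 0.34 (adjusted p = 1.15e-05) and -2.48 ± 0.34 (adjusted p = 0.000118), and after avrB the gene rose by 1.60 ± 0.34 in atgsnor1-3 (adjusted p = 0.000909) and 1.98 ± 0.34 in sid2 (adjusted p = 0.000239). AT2G34250 of the same list rose by 1.44 ± 0.15 in atgsnor1-3 (adjusted p = 8.06e-07) and 1.38 ± 0.15 in sid2 (adjusted p = 2.72e-06). In Col-0 its response was 0.50 ± 0.15 (adjusted p = 0.0227), under the fold threshold. Untreated, it was lower than Col-0 in atgsnor1-3 at -1.09 ± 0.15 (adjusted p = 9.7e-05), a call that held in 10 of 11 alternatives. In untreated sid2 it stood at -0.77 ± 0.15 against Col-0 (adjusted p = 0.00296), not called. After avrB it stood at -0.15 ± 0.15 in atgsnor1-3 and 0.10 ± 0.15 in sid2 against Col-0, neither called.

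**Figure D4:**
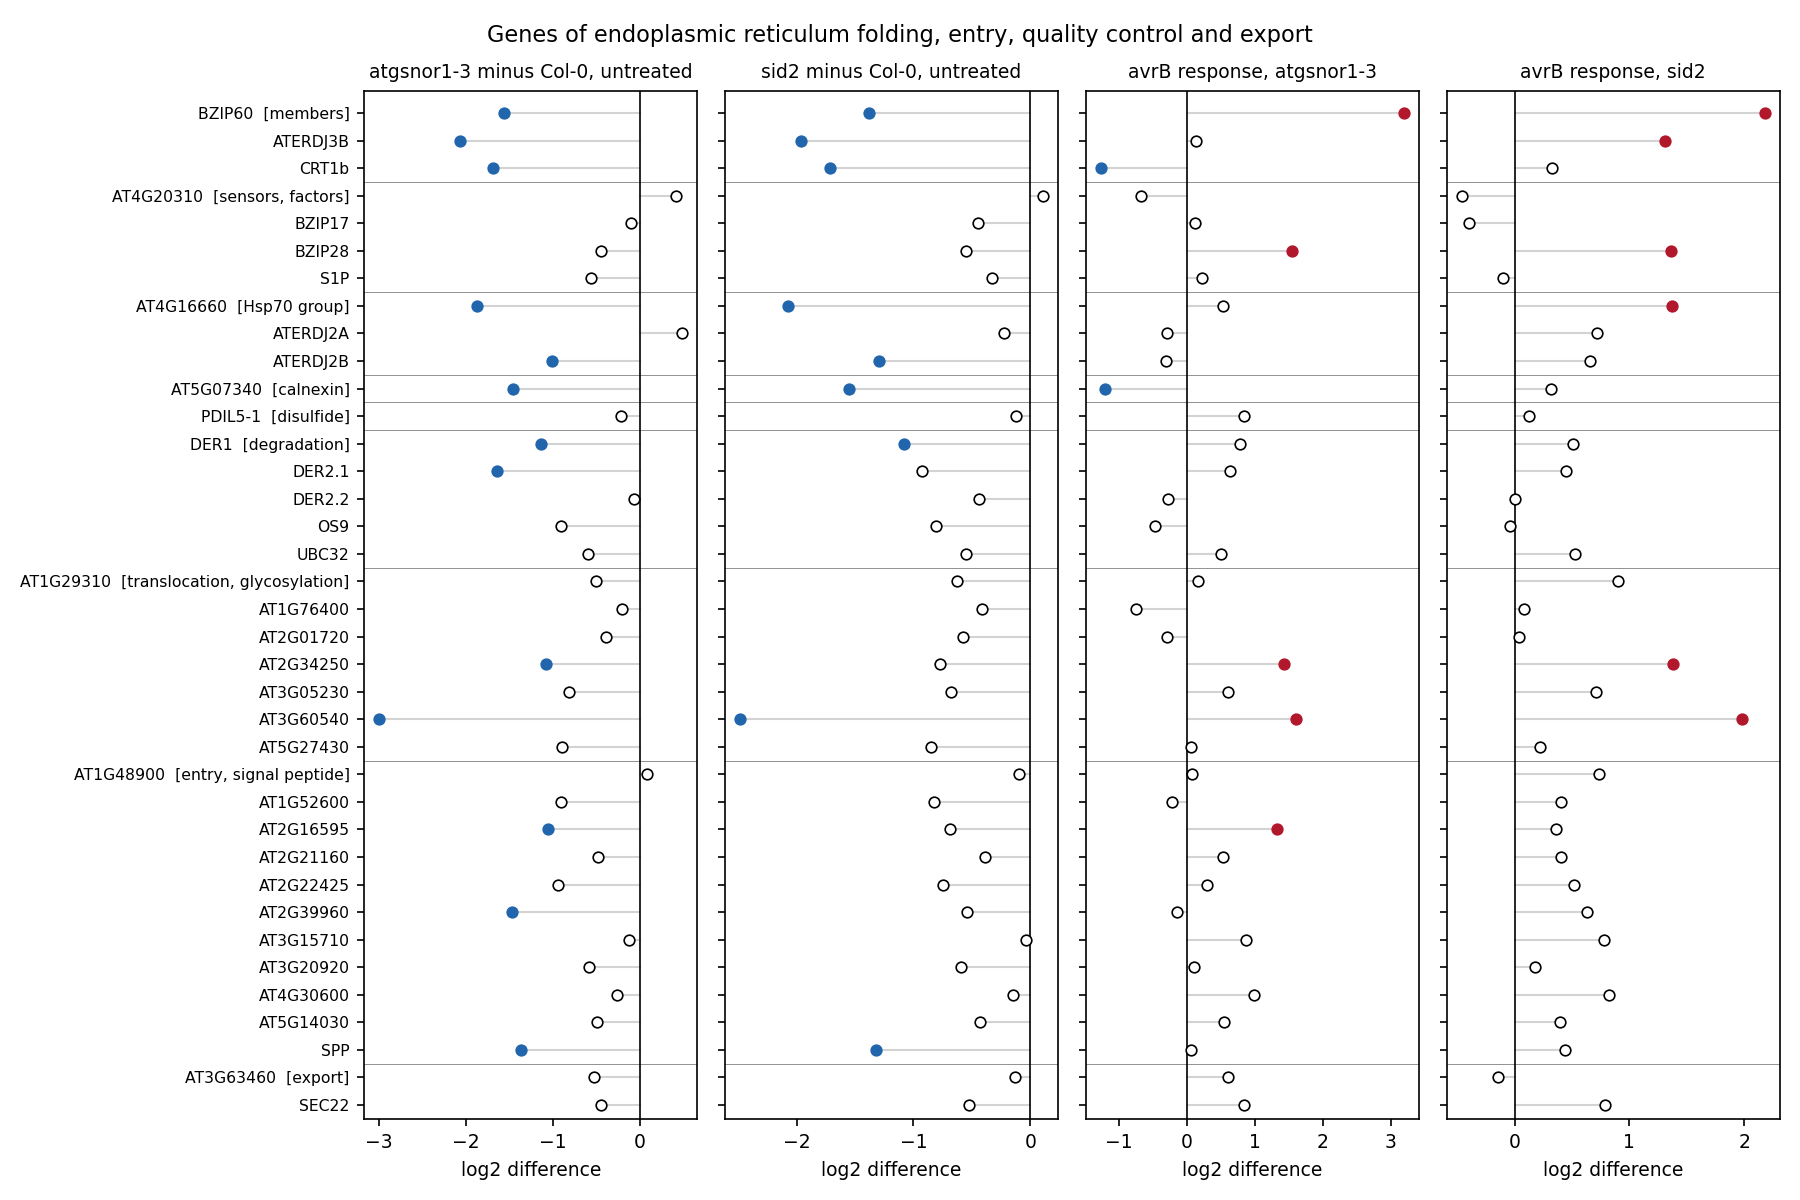
Log2 differences of the tested genes of each pathway list in 4 comparisons, 1 dot a probe set, coloured where called higher (red) or lower (blue) and white where not called. In untreated atgsnor1-3 and sid2 the coloured dots of the endoplasmic reticulum lists are blue, down to -2.99 for AT3G60540. The cytosolic chaperones are not drawn.

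Chaperone genes of the cytosol, listed as a second compartment, had 2 tested probe sets of 8 loci. Hsp70-2 (AT5G02490) rose after avrB in all 4 genotypes, by a log2 of 2.19 ± 0.18 in Col-0, 3.06 ± 0.18 in atgsnor1-1, 4.25 ± 0.18 in atgsnor1-3 and 4.03 ± 0.18 in sid2 (adjusted p at most 7.19e-07). Like BZIP60 it was lower in untreated atgsnor1-3, at -2.26 ± 0.18 (adjusted p = 2.2e-07), and in untreated sid2, at -1.86 ± 0.18 (adjusted p = 3.35e-06). Its levels after avrB lay close together, with group means from 2079 units in atgsnor1-3 to 2635 in atgsnor1-1. AT3G09440 also rose, by 1.43 ± 0.22 in Col-0, 2.69 ± 0.22 in atgsnor1-3 and 2.36 ± 0.22 in sid2. In atgsnor1-1 it was called at 1.04 ± 0.22 (adjusted p = 0.00173), a call lost without the second untreated array (0.93) and without the second array after avrB (0.66). Against untreated Col-0, AT3G09440 was lower in atgsnor1-3 at -1.33 ± 0.22 (adjusted p = 0.000586). In untreated sid2 it stood at -0.99 ± 0.22 (adjusted p = 0.00845), under the fold threshold. After avrB it stood at -0.07 ± 0.22 in atgsnor1-3 and -0.06 ± 0.22 in sid2 against Col-0, neither called. Probe sets of such closely related genes can read more than 1 family member, and the same holds for CRT1b beside CRT1a.

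The genes whose 8 group means followed those of each member most closely were named by Pearson's r on the log2 scale, among 2757 probe sets whose group means had an SD of at least 0.5. For BZIP60 they were AT1G26380 (r = 0.99), AT3G62590, AT1G74360, ACA.l and AT1G23440, the last at 0.99. For CRT1b the closest was AT5G07340 of the calnexin cycle list (r = 0.997), followed by AT2G28940 at 0.98, AT3G51000, AT2G24160 and AT5G41400 at 0.96. For ATERDJ3B they were AT4G17670 and AT4G29520 at 0.98, AT5G12890 at 0.98, AT4G16660 at 0.97 and SPP at 0.96. Of the 15, these 3 were also on the pathway lists: AT5G07340, AT4G16660 and SPP. The correlations describe 8 points that share their arrays and the scaling, and they were picked as the highest of many.

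The genes near BZIP60 differed from it in span. AT1G26380 went from a mean log2 signal of 2.78 in untreated atgsnor1-3 to 9.11 after avrB and in Col-0 from 5.27 to 6.87. AT1G74360 went from 2.76 to 9.29 in atgsnor1-3 and from 6.00 to 7.68 in Col-0. Both untreated atgsnor1-3 means lay below the filter level of 20.2 units, where signals are dim. So did AT1G26380 in untreated sid2 (3.02) and atgsnor1-1 (4.159), and AT1G74360 in untreated sid2 (3.868). AT3G62590 lay below it in untreated atgsnor1-3 (3.865) and sid2 (4.145). The same holds for 3 of the 5 genes near CRT1b in atgsnor1-3 after avrB, with mean log2 signals of 2.70 for AT2G28940, 1.94 for AT2G24160 and 1.81 for AT5G41400. In untreated atgsnor1-3 these genes were also below it (4.211, 3.749 and 3.446), as were AT2G28940 (4.019) and AT5G41400 (3.548) in untreated sid2.

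**Figure D5:**
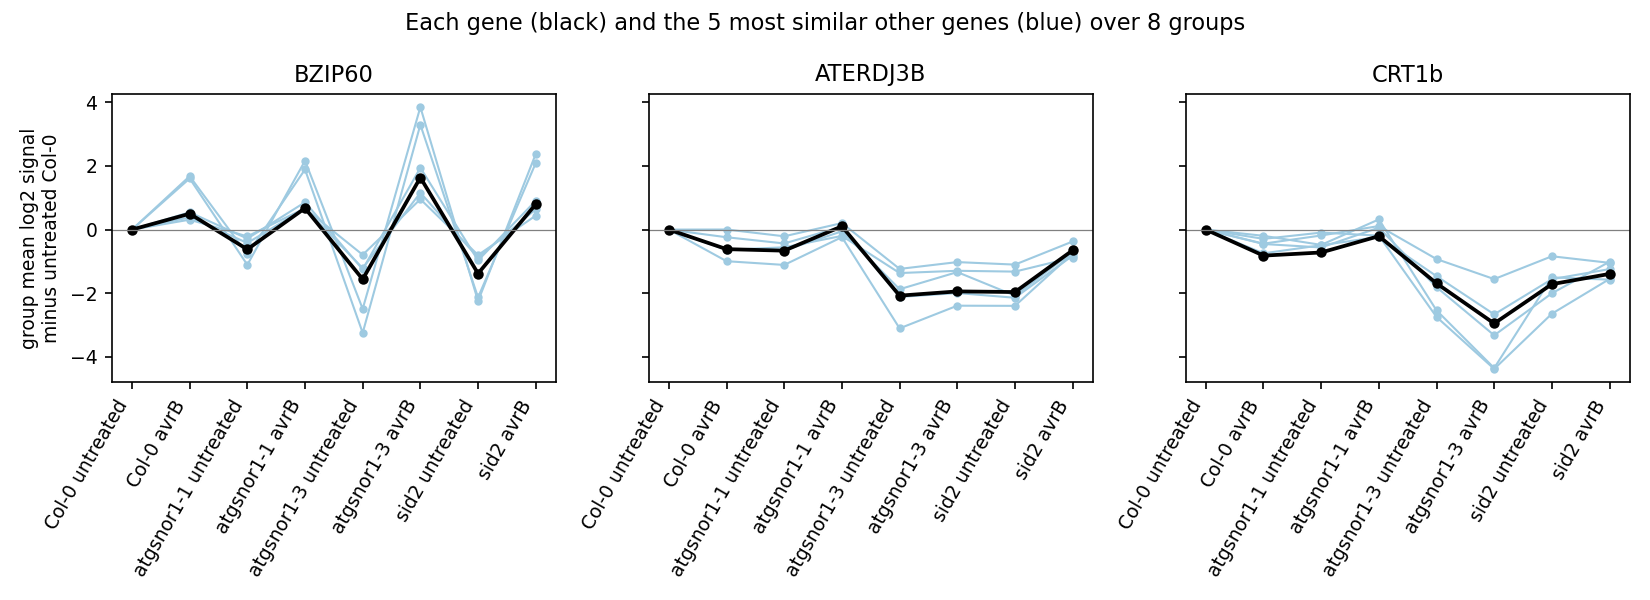
Group means of log2 signal, as the difference from untreated Col-0, for each of the 3 genes (thick line) and the 5 genes of closest pattern (thin lines) over the 8 groups. The lines near BZIP60 peak in atgsnor1-3 after avrB, and those near CRT1b are lowest there, 3 of them at dim signals below the filter level.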

How the data were processed

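The ATH1 arrays carry 1 colour. The authors deposited a linear intensity for every probe set and array; MAS5 and GCOS made it, per the submitters' processing notes, which give no version here. A mean trimmed by 2% at either end is the same on all arrays, so the deposited intensity values were already scaled. Samples were grouped by genotype and treatment from their labels; the title of the second sid2 array after avrB carries both replicate numbers and was counted as number 2, its partner being number 1. Of 22810 probe sets, 64 control probe sets were left out, and then the 40% with the lowest mean log2 signal (under 20.2 units). The annotation used gives 1 gene to 13513 probe sets, several to 503 and none to 8730; 13436 were matched to a locus through the RefSeq table of TAIR10.1. GSNOR1 and the isochorismate synthase gene had no matched probe set, so the mutations were not checked in the signals. The number of arrays limits the precision.

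The log2 of each signal, with nothing added, entered a limma fit (version 3.58.1, R 4.3.3) of 8 group means over 16 arrays (lmFit, eBayes with a trend of variance on mean, 8 residual degrees of freedom); tests are two-sided, with Benjamini-Hochberg adjustment within each of 16 comparisons. The fit was tested on simulated data. The members, lists, comparisons and alternatives were chosen with earlier results of these data known. Genes that could be named are all members, up to 4 called genes of largest change per list and comparison (the text gives a part of their comparisons), the factors BZIP17 and BZIP28 as values, and the 5 genes of closest pattern per member; S1P is given beside BZIP28 and was chosen after its values were seen. Alternatives changed 1 choice each: quantile normalization; the filter, dropped or raised to 60%; adding 9.48 units before log2, the 25th percentile over all signals; eBayes without the trend; replicate number as a block; a fit of the compared groups alone; and leaving out single arrays (7 residual degrees of freedom, the lone array of a group taken to vary as the others do). Figures were drawn in matplotlib 3.10.9 (Python 3.11.15, with pandas 2.3.3).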

Additional observations from a re-analysis of the deposited data

Results flagged for a closer look

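In 7 cases the avrB response of a gene differed between 2 genotypes by limma's test of the difference itself. The BZIP60 response exceeded that of Col-0 by a log2 of 2.70 in atgsnor1-3 and 1.68 in sid2, and the response in atgsnor1-3 exceeded that in sid2 by 1.02. The ATERDJ3B response exceeded that of Col-0 by 1.38 in atgsnor1-1 and 1.92 in sid2, and atgsnor1-3 minus sid2 was -1.18. For CRT1b, atgsnor1-3 minus sid2 was -1.58. The 4 differences from Col-0 share the Col-0 arrays. The differences of 2.70, 1.68 and 1.92 were called in all 15 alternatives. That of 1.38 was called in 8 of 15, 1.02 in 7, -1.18 in 11 and -1.58 in 12. After avrB neither BZIP60 (0.30) nor ATERDJ3B (-0.04) was called different in sid2 against Col-0.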

How the results depend on the processing

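The count of called genes among the 3 members was within 1.5 times its main value in all 16 comparisons under quantile normalization, either other filter, the pseudocount and only the compared groups. With a variance without a trend, the atgsnor1-1 minus Col-0 response difference called 0 members in place of 1, and atgsnor1-3 minus sid2 called 0 in place of 3. Leaving out 1 array moved the count in 4 comparisons: 1 to 2 for the atgsnor1-1 response, 0 to 1 for atgsnor1-1 against Col-0 after avrB, 0 to 2 for the atgsnor1-1 minus Col-0 response difference and 1 to 3 for that of atgsnor1-3 minus sid2. Differences near 0 turned sign in 5 cases. ATERDJ3B ran from -0.040 (without the first untreated atgsnor1-3 array) to 0.31 in the atgsnor1-3 response, from -0.29 to 0.060 (without the same array) in untreated atgsnor1-3 against sid2, and from -0.21 to 0.13 (without the second Col-0 array) in sid2 against Col-0 after avrB. CRT1b ran from -0.19 (without the second atgsnor1-3 array) to 0.24 in untreated atgsnor1-3 against sid2, and BZIP60 from -0.016 (without the first atgsnor1-1 array) to 0.37 in atgsnor1-1 against Col-0 after avrB. The cause was not tested. Same-numbered arrays did not deviate together (28 group pairs, r from -0.15 to 0.10, 1 over 0.1). The values show no shared shift, but the labels do not say whether the numbers mark a shared batch. With the replicate block the count of called members was the same in all 16 comparisons, from 0 in the Col-0 response to 3 in untreated atgsnor1-3. Calls over all probe sets for atgsnor1-1 against Col-0 after avrB went from 22 to 11 with that block.

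Calls over all probe sets moved most where few were made. For untreated atgsnor1-1 against Col-0, 20 became 10 without a filter, 6 with the dimmest 60% left out, 6 with only the compared groups, and 7 to 83 without 1 array. For atgsnor1-1 against Col-0 after avrB, 22 became 12 without a filter, 11 without a trend, 63 with only the compared groups, and 5 to 113 without 1 array. For the atgsnor1-1 minus Col-0 response difference, 74 became 42 without a filter, 123 with a pseudocount, 29 without a trend, 119 with only the compared groups, and 1 to 201 without 1 array. With only the compared groups, untreated atgsnor1-3 went from 1199 to 782 against Col-0 and from 307 to 146 against sid2, sid2 against Col-0 after avrB from 205 to 374, and the atgsnor1-3 minus sid2 response difference from 699 to 454. The sid2 minus Col-0 response difference went from 355 to 222 without a trend. Without 1 array the lowest counts were 94 for sid2 against Col-0 after avrB, 203 for that difference and 379 for atgsnor1-3 minus sid2, and untreated atgsnor1-3 against sid2 ran from 189 to 638. With 2 arrays a group, a difference that was not called is not shown to be absent.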
